A study of Homo sapiens with 12 samples.

Results

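Gene expression was compared between HK-2 cells with and without knockdown of POLR2A during aristolochic acid I (AAI) injury. HK-2 is an immortalised line from human kidney proximal tubule, the segment that reabsorbs most of the filtrate, and AAI is a plant toxin whose DNA adducts injure that segment. All cells in the comparison received 25 µM AAI for 24 hours and, at the same time, 10 nM of an siRNA duplex that was either scrambled (SCR AAI, 3 libraries) or directed against POLR2A (siB AAI, 3 libraries). These 6 libraries were taken, by their titles, from the 12 of the series. The other 6 are the same cells in DMSO, the solvent of AAI (SCR DMSO and siB DMSO, 3 libraries each). They serve as a background and for a test of whether the knockdown effect differed with AAI. A separate treatment field of the labels reads DMSO in every sample, those titled AAI included. The knockdown is transient and rests on a single duplex, so that the loss of POLR2A and any other effect of that duplex cannot be told apart. Nothing in the labels says whether replicates were separate cultures, so p-values measure only the spread between these libraries, which may be technical. Of 35238 genes in the deposited table, 14946 reached 1 CPM (counts per 1e6 reads) in at least 3 of the 6 libraries and were tested.

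POLR2A is the gene of RPB1. This largest chain of RNA polymerase II carries the catalytic centre and the long C-terminal tail whose phosphorylation marks initiation, pause release and elongation. The enzyme makes every messenger RNA of the nucleus. Bulky adducts such as those of AAI stall it in the body of a gene, where the stalled enzyme recruits transcription-coupled repair and may itself be ubiquitinated and degraded. Long genes offer more sites for a stall than short ones. The comparison asks how the transcriptome of injured tubule cells differs when POLR2A is kept low.

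POLR2A (chromosome 17, 7484366 to 7514616, plus strand) stood at 673, 719 and 729 CPM in SCR AAI replicates 1, 2 and 3 and 266, 220.4 and 210.3 CPM in siB AAI replicates 1, 2 and 3. The groups did not overlap, and the siB mean was 0.328 times the SCR mean. The difference was -1.61 (SE 0.15, adjusted p 5.8e-04) on the scale of log2(CPM + 1), on which all differences below are given, siB AAI minus SCR AAI. It was -1.34, -1.70 and -1.79 between libraries of the same replicate number. In DMSO the means were 284 CPM for SCR and 139.7 CPM for siB cells, so that injured knockdown cells kept about as much POLR2A message as uninjured SCR cells (232 against 284 CPM, not tested). CPM are shares of the library's reads. The log2(CPM + 1) scale understates the change of genes near 1 CPM. A loss of total messenger RNA per cell would not show in CPM, and in bulk libraries fewer cells of a kind and less RNA per cell cannot be told apart.

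Depth ran from 15844015 to 25542795 reads in these 6 libraries and overlapped between the groups. On the first principal component, with 50.5% of the variance, the groups were apart, with SCR AAI at -36.2 to -12.7 and siB AAI at 17.5 to 43.9. The second held 28.1%, with SCR AAI replicate 1 farthest out at 38.8. Genes with at least 1 CPM numbered 14283 to 14298 in SCR AAI and 14956 to 15699 in siB AAI, and genes with any read 20571 to 21393 and 21555 to 22764. Mitochondrially encoded messenger RNA took 2.86% to 3.496% of reads in SCR AAI and 4.12% to 5.01% in siB AAI. For each of these 4 measures the groups did not overlap, with a 2-sided exact permutation p of 0.1, the smallest that 3 against 3 libraries allows (0.15 adjusted over 6 measures). Their part in the results below was not tested. The measures that overlapped were depth and the share of reads on the gene AC010970.2. That share ran from 0.667% to 10.6% in SCR AAI and from 0.826% to 6.41% in siB AAI (exact permutation p 0.9). With that gene left out, the calls described below numbered 458 raised and 99 lowered genes. Markers of proximal tubule identity were mixed. PAX8, a transcription factor of the tubule, and the surface enzymes GGT1 and DPP4 were well expressed (201, 379.9 and 372 CPM in SCR AAI and 199.9, 284 and 313 CPM in siB AAI for PAX8), while the endocytic receptor LRP2 was near 0 (at most 1.20 CPM in a library) and the organic anion transporter SLC22A8 had no read.

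With both an adjusted p below 0.05 and at least a 2-fold change required, 454 genes (3.04% of those tested) were raised and 94 (0.629%) were lowered in siB AAI. Without the fold limit 820 genes (5.49%) were higher and 567 (3.79%) lower, and with a replicate block, which compares libraries of the same number, 2268 (15.2%) and 2057 (13.8%). These 4 shares are the background for the same counts in the gene lists below. The block changed the calls with the fold limit little (477 raised and 107 lowered). Its p-values rest on a variance pooled over genes, so the spread of a single gene between pairs does not enter them. The median difference over all tested genes was 0.00. Of the tested genes, 2252 (15.1%) lay higher in every siB AAI than in every SCR AAI library and 2356 (15.8%) lower, so that shifts in one or the other direction were about as frequent while large rises outnumbered large falls. The count of raised genes was 144 without SCR AAI replicate 3 and 597 without SCR AAI replicate 1, and the count of lowered genes was 44 and 164. Without the fold limit SCR AAI replicate 3 decided still more, with 151 higher and 62 lower genes when it was left out, and all 14 genes that are named below by rule at the adjusted p alone lost that call without it. Raised genes were mostly weak. Of the genes called above, 200 raised and all 94 lowered ones had at least 1 CPM in all SCR AAI libraries. A new fit of all genes at that level called 198 raised and 91 lowered genes.

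**Figure D1:**
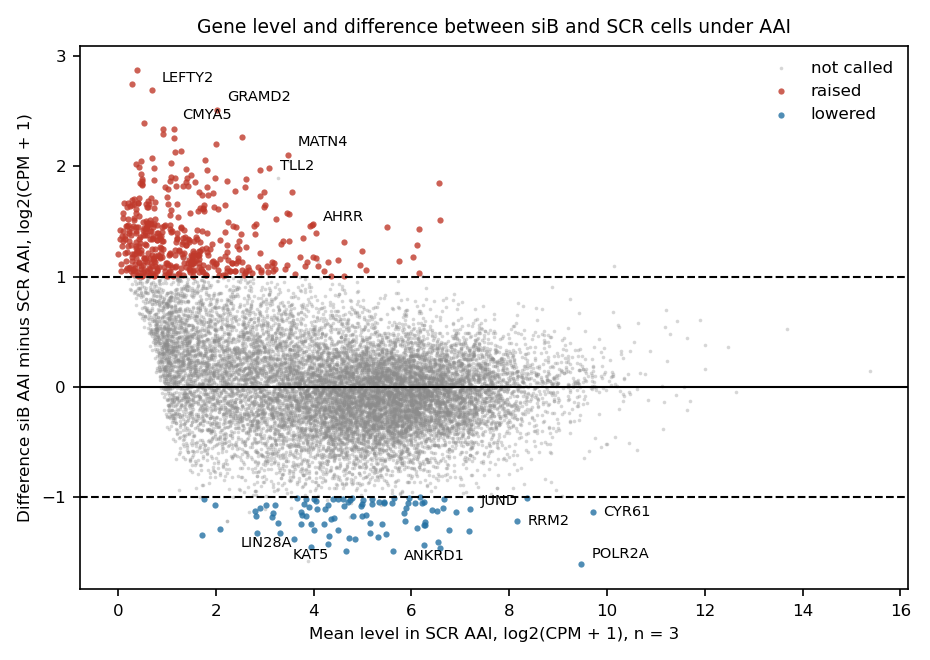
Difference between siB AAI and SCR AAI, log2(CPM + 1), against the mean level in the 3 SCR AAI libraries on the same log2 scale (x axis), 1 point per tested gene, with dashed lines at the 2-fold limit. The 454 raised genes (red) crowd at the left, at low levels, and the 94 lowered genes (blue) spread over middle and high levels, with POLR2A at -1.61. The fold limit itself bars lowered genes from the lowest levels.

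The 15 raised genes with the largest change among those with a mean of at least 5 CPM and no overlap are described first. Of these, LEFTY2, CMYA5, DAPP1, PRPH, MN1, CCDC168 and CASKIN1 reached 1 CPM in fewer than 3 SCR AAI libraries. They entered the test only with the help of siB AAI, which favours genes that are higher there, so their p-values are not independent of that filter. LEFTY2 (chromosome 1, 225936598 to 225941383, minus strand), a secreted inhibitor of Nodal signalling, stood at 0.939, 0.181 and 0.705 CPM in SCR AAI replicates 1, 2 and 3 and 14.2, 6.14 and 8.68 CPM in siB AAI replicates 1, 2 and 3. The difference was 2.69 (SE 0.29, adjusted p 5.8e-04), and the siB mean was 15.9 times the SCR mean. LEFTY2 overlaps 1 other annotated gene and has a close copy, LEFTY1, so its count is uncertain where reads were shared. CMYA5 (chromosome 5, 79689836 to 79800240, plus strand), a large muscle protein also called myospryn, stood at 1.601, 1.13 and 0.9004 CPM in SCR AAI and 12.6, 9.46 and 8.57 CPM in siB AAI, a difference of 2.34 (SE 0.23, adjusted p 5.8e-04). GRAMD2, now GRAMD2A (chromosome 15, 72159806 to 72197787, minus strand), a protein of contacts between endoplasmic reticulum and plasma membrane, stood at 4.58, 2.22 and 2.31 CPM in SCR AAI and 35.5, 14.6 and 18.4 CPM in siB AAI, a difference of 2.51 (SE 0.31, adjusted p 0.00130). In each of these 3 genes siB AAI replicate 1 was the highest library.

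TRIM72, a ubiquitin ligase that patches torn muscle membrane, stood at 8.28, 3.13 and 2.94 CPM in SCR AAI and 41.7, 17.7 and 19.9 CPM in siB AAI, a difference of 2.26 (SE 0.36, adjusted p 0.00406). PRPH, which encodes the neuronal filament peripherin, stood at 2.76, 0.906 and 0.626 CPM in SCR AAI and 15.3, 6.69 and 6.97 CPM in siB AAI, a difference of 2.14 (SE 0.35, adjusted p 0.00433). Both were highest in siB AAI replicate 1, and within SCR AAI both were highest in replicate 1. DAPP1, a phosphoinositide-binding adaptor of lymphocytes, differed by 2.26 (SE 0.37, adjusted p 0.00433), CASKIN1, a scaffold of synapses, by 1.92 (SE 0.38, adjusted p 0.00967), and MYH15, a myosin heavy chain, by 2.20 (SE 0.24, adjusted p 5.8e-04). Among secreted and matrix proteins, MATN4, a matrilin of cartilage matrix, stood at 18.9, 6.03 and 5.25 CPM in SCR AAI and 67.1, 28.5 and 33.7 CPM in siB AAI. FRZB, a secreted Wnt antagonist, stood at 4.03, 1.09 and 2.11 CPM in SCR AAI and 16.2, 9.51 and 11.9 CPM in siB AAI, and TLL2, a metalloprotease of the tolloid family that processes matrix precursors, at 8.72, 6.75 and 7.16 CPM in SCR AAI and 40.1, 29.5 and 29.7 CPM in siB AAI. Their differences were 2.11 (SE 0.40, adjusted p 0.00880), 2.05 (SE 0.31, adjusted p 0.00323) and 1.99 (SE 0.20, adjusted p 5.8e-04). The transcriptional coregulator MN1 differed by 2.13 (adjusted p 5.8e-04), the sialyltransferase ST8SIA5 by 1.97 (adjusted p 5.8e-04), the TOG domain protein FAM179A (now TOGARAM2) by 1.96 (adjusted p 5.8e-04) and CCDC168, a coiled-coil protein, by 1.97 (adjusted p 0.0197). Without SCR AAI replicate 3, 6 of the 15 (TRIM72, DAPP1, PRPH, MATN4, CCDC168 and CASKIN1) had an adjusted p above 0.05 (up to 0.133), and 2 of these (MATN4 and CCDC168) also without SCR AAI replicate 2 (up to 0.0945).

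A small set of the raised genes was well expressed: 14 stood above 20 CPM in SCR AAI, and 2 of them are given here, chosen after their values were seen. TNFRSF10D, a decoy receptor for the death ligand TRAIL, stood at 140.2, 64.7 and 80.4 CPM in SCR AAI and 312, 215 and 258 CPM in siB AAI and rose by 1.51 (SE 0.25, adjusted p 0.00436). EPPK1, the cytolinker epiplakin of epithelia, stood at 81.6, 70.2 and 58.96 CPM in SCR AAI and 287, 137 and 173 CPM in siB AAI and rose by 1.43 (SE 0.24, adjusted p 0.00455). In both genes the lowest siB AAI library lay above the highest SCR AAI library. Their adjusted p with a library left out is not given here, and without SCR AAI replicate 3 the count of raised genes was 144.

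Over the 454 raised genes the median level was 1.38, 1.04 and 0.979 CPM in SCR AAI replicates 1, 2 and 3 and 6.19, 4.20 and 4.15 CPM in siB AAI replicates 1, 2 and 3. In 371 of them (81.7%) siB AAI replicate 1 was the highest of the 6 libraries, against 28.8% of all tested genes. Between libraries of the same number the median difference was 1.50, 1.24 and 1.22, and all 454 genes moved the same way in the 3 pairs. Of all 14946 tested genes 8197 did so. The call was made on these same libraries and largely sets this agreement, so it is not a replication. In SCR AAI 204 of them (44.9%) were under 1 CPM, and 254 reached 1 CPM in fewer than 3 SCR AAI libraries. These 254 entered the test only with the help of siB AAI, which favours genes that are higher there. Low levels outside siB AAI are thus in part set by the filter and the call. In DMSO the raised genes had medians of 0.276 CPM in SCR and 0.281 CPM in siB cells, where 3 reads are worth 0.0701 to 0.167 CPM. In SCR DMSO 344 of the 454 (75.8%) were under 1 CPM, against 11.1% of all tested genes. For these 344 an effect of the knockdown without AAI could hardly be measured. The 200 raised genes with at least 1 CPM in all SCR AAI libraries had medians of 1.01, 1.12, 3.23 and 9.89 CPM in SCR DMSO, siB DMSO, SCR AAI and siB AAI.

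**Figure D2:**
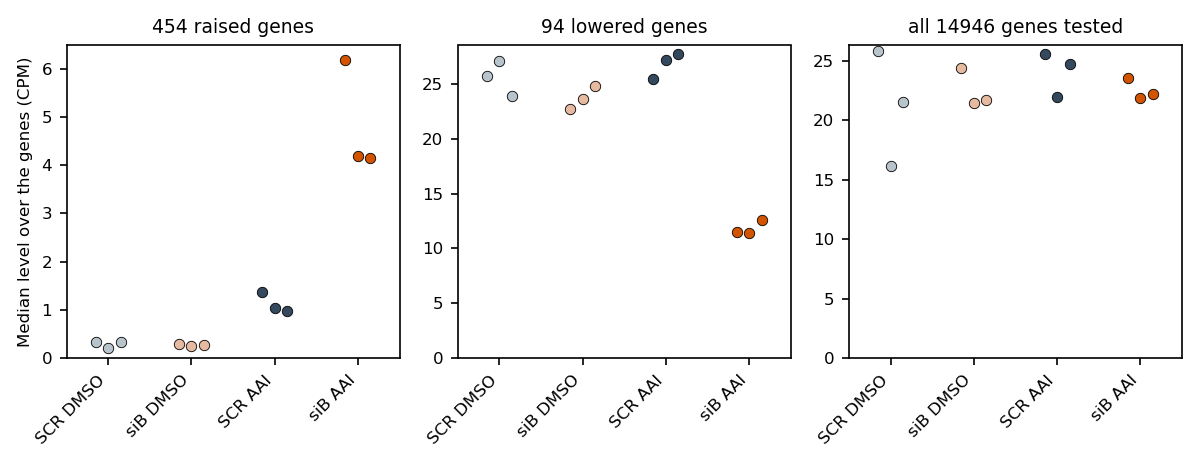
Median level in CPM of the 454 raised, the 94 lowered and all 14946 tested genes in each of the 12 libraries, 1 point per library, replicates 1 to 3 from left in each group. The raised genes stand at 0.210 to 0.331 CPM in the DMSO libraries, 0.979 to 1.38 CPM in SCR AAI and 4.15 to 6.19 CPM in siB AAI, and the lowered genes fall below the other 9 libraries in siB AAI alone.

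The lowered genes were expressed in all groups with few exceptions, which in SCR AAI the call itself requires. Those with the largest change included several regulators. After POLR2A itself come ANKRD1 and KAT5, with nearly the same difference. ANKRD1 (chromosome 10, 90912096 to 90921087, minus strand) encodes an ankyrin repeat protein induced by stretch and by the YAP coactivator. It stood at 37.6, 45.95 and 61.4 CPM in SCR AAI replicates 1, 2 and 3 and 12.2, 21.4 and 16.2 CPM in siB AAI replicates 1, 2 and 3, a difference of -1.49 (SE 0.23, adjusted p 0.00375). KAT5 (chromosome 11, 65711996 to 65719604, plus strand), also called TIP60, acetylates histones and the damage kinase ATM. It stood at 16.6, 30.7 and 26.00 CPM in SCR AAI and 5.93, 7.98 and 10.02 CPM in siB AAI, a difference of -1.49 (SE 0.25, adjusted p 0.00512). DDIT4 (chromosome 10, 72273919 to 72276036, plus strand), which restrains the growth kinase mTORC1 under stress, stood at 50.6, 83.5 and 90.8 CPM in SCR AAI and 20.95, 27.5 and 31.4 CPM in siB AAI, a difference of -1.43 (SE 0.23, adjusted p 0.00426). SCR AAI replicate 1 was the lowest of the SCR AAI libraries and siB AAI replicate 1 the lowest of all in each of these 3 genes.

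DNMT3B, which places new methyl groups on DNA, stood at 98.1, 81.3 and 96.9 CPM in SCR AAI and 40.2, 29.2 and 33.1 CPM in siB AAI and LIN28A, which blocks maturation of let-7 microRNAs, at 14.1, 13.5 and 15.7 CPM in SCR AAI and 6.25, 3.42 and 4.61 CPM in siB AAI. They fell by 1.41 (SE 0.17, adjusted p 0.00108) and by 1.45 (SE 0.22, adjusted p 0.00339). Further regulators were PRKCE, a protein kinase C isoform, at -1.37 (adjusted p 0.00509), RNF144B, a ubiquitin ligase, at -1.42 (adjusted p 0.00344), EFNA4, an ephrin ligand, at -1.38 (adjusted p 0.00426) and HMGXB4, an HMG-box protein, at -1.36 (adjusted p 0.00187). The zinc finger proteins ZNF787 and FIZ1 were at -1.46 (adjusted p 0.0129) and -1.34 (adjusted p 0.00318), SARS2, the mitochondrial seryl-tRNA synthetase, at -1.35 (adjusted p 0.0109), and TEX19, a germ cell protein, at -1.33 (adjusted p 0.00751). B3GALT4, a galactosyltransferase of ganglioside synthesis, stood at 23.3, 34.3 and 26.2 CPM in SCR AAI and 8.84, 10.9 and 10.3 CPM in siB AAI and fell by 1.38 (SE 0.20, adjusted p 0.00300), but was at 0.302 CPM in SCR DMSO and 0.332 CPM in siB DMSO. It starts 612 bp past the end of the ribosomal protein gene RPS18 on the same strand and overlaps 1 other gene, and the part of transcription from upstream in its count was not tested. Without SCR AAI replicate 3, 6 of them (KAT5, ZNF787, DDIT4, PRKCE, SARS2 and TEX19) had an adjusted p of 0.05 or above (up to 0.0847), and without SCR AAI replicate 2 ZNF787 (0.0571) and SARS2 (0.0549) did.

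**Figure D3:**
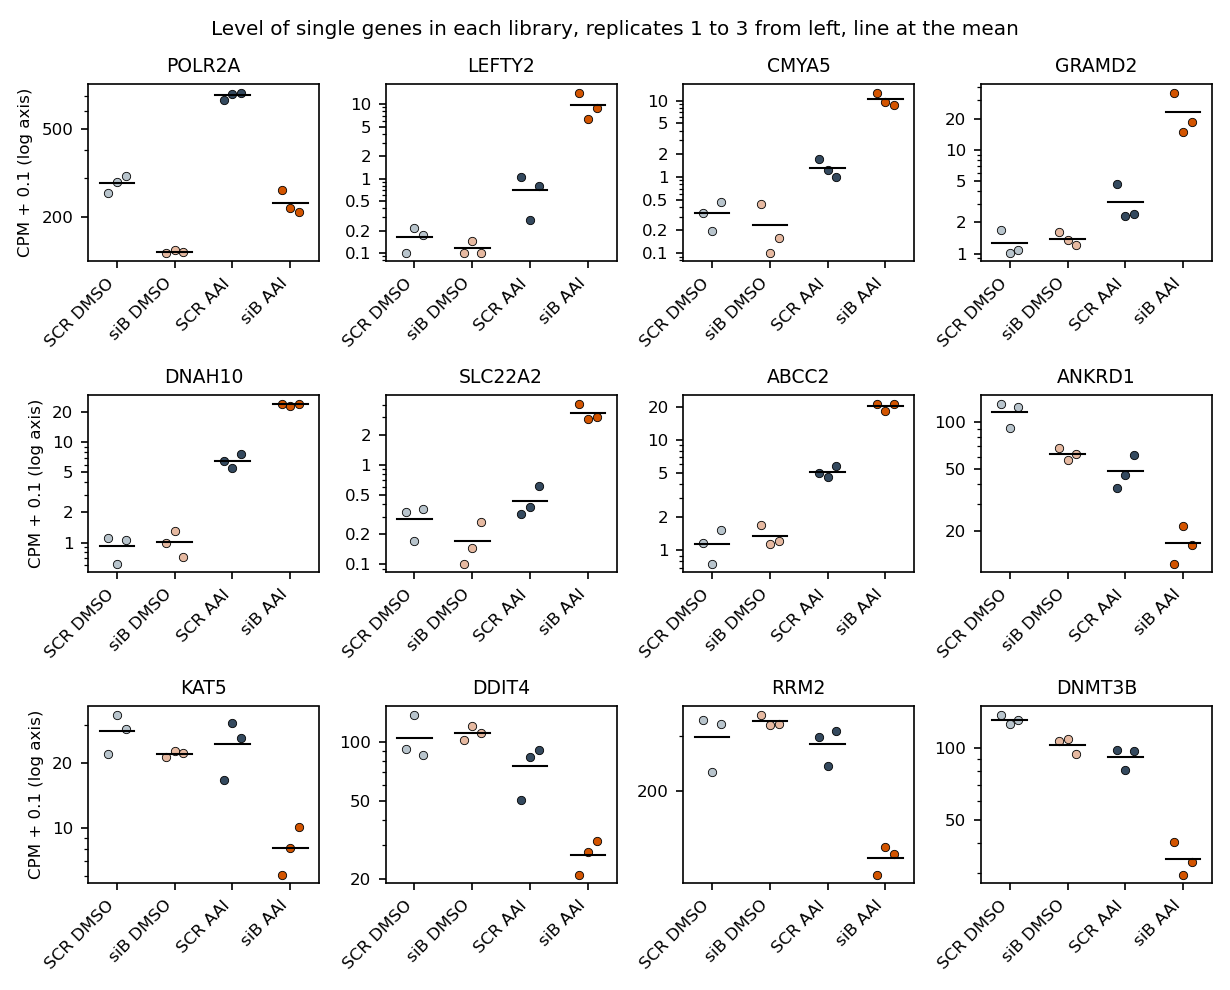
Level of 12 genes in each library, as CPM plus 0.1 on a log axis that differs between panels, replicates 1 to 3 from left in each group, with a line at the group mean. In POLR2A and the 5 other lowered genes (ANKRD1, KAT5, DDIT4, RRM2 and DNMT3B) the 3 siB AAI libraries lie below the 3 SCR AAI libraries, and in the 6 raised genes (LEFTY2, CMYA5, GRAMD2, DNAH10, SLC22A2 and ABCC2) above them.

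Over the 94 lowered genes the median was 25.5, 27.2 and 27.7 CPM in SCR AAI replicates 1, 2 and 3 and 11.5, 11.4 and 12.6 CPM in siB AAI. Same-numbered libraries differed by a median of -1.18, -1.20 and -1.11, in one direction in every gene, against 8197 of all 14946 tested genes. Here too the call largely sets that agreement. All 94 had a mean of at least 1 CPM in SCR AAI, which a 2-fold fall on the log2(CPM + 1) scale requires. In SCR DMSO 6 of them (B3GALT4, CTC-435M10.3, DND1, OIT3, RP11-542C16.2 and USP19) were under 1 CPM. In DMSO, 30 of the 94 (31.9%) were higher in siB than in SCR cells, against 58.9% of all tested genes, with a median difference of -0.16 against 0.05. The SCR DMSO means include replicate 2, whose median over all tested genes was 16.2 CPM, against 25.8 and 21.5 CPM in replicates 1 and 3. Its part in these shares was not tested. By name, 8 of 94 (8.51%) were zinc finger genes of the ZNF, ZBTB, ZSCAN, ZKSCAN or ZFP series, against 3.87% of tested and 1.76% of raised genes, and 13 (14.3% of those with a known position) lay on chromosome 19, against 7.68% and 6.07%.

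Raised and lowered genes differed in build. The span from first to last annotated base was known for 412 raised, 91 lowered and 14287 tested genes. Its median was 29.7 kb for raised, 10.6 kb for lowered and 31.5 kb for tested genes, and the median number of separate exon blocks was 10, 6 and 11. Of the lowered genes 3 (3.30%) spanned over 100 kb, against 71 (17.2%) of the raised and 18.7% of the tested genes. The raised side of this contrast depended on the weak genes. Among genes with at least 1 CPM in all SCR AAI libraries, the short class under 30 kb held 39.9% of the raised and 75.8% of the lowered genes, against 48.0% of those tested, and the median span of raised genes was 39.5 kb. Raised genes also began closer behind an expressed neighbour on their own strand, with a median gap of 23.7 kb against 62.7 kb for tested and 65.9 kb for lowered genes, and 24.4% against 19.2% and 20.9% within 10 kb. Another annotated gene overlapped 48.4% of the lowered genes, against 71.5% of those tested, while the share of raised genes lay below the tested genes over all genes (63.3%) and not among genes with at least 1 CPM in all SCR AAI libraries (73.4% against 72.0%). The same holds for their exon blocks (12 against 11 in those genes). Genes are not replicates, so no test was made of these shares.

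**Figure D4:**
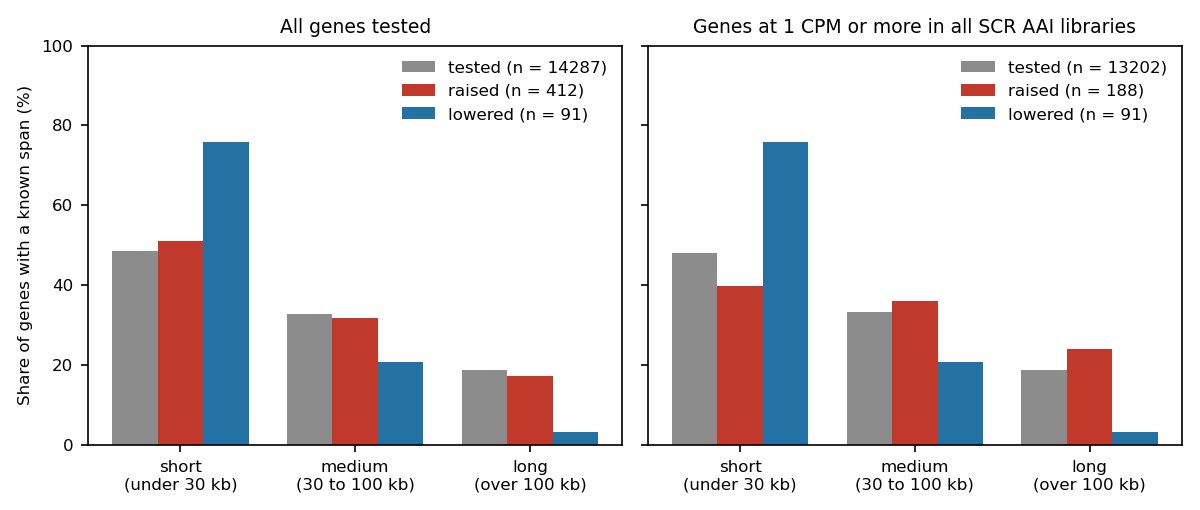
Share in percent of tested (grey), raised (red) and lowered (blue) genes with a known span that were short, medium or long, over all tested genes (left) and over genes with at least 1 CPM in all 3 SCR AAI libraries (right). Lowered genes, the same 91 in both panels, are 75.8% short and 3.30% long, and raised genes 51.0% short on the left and 39.9% on the right.

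Promoter sequence, which sets where and how often the polymerase starts, was read from RefSeq (GRCh38.p14) as the 250 bases before the annotated start, for 287 raised, 68 lowered and 11287 tested genes. Promoters of raised genes held fewer CpG dinucleotides for their base composition, with a median observed-to-expected ratio of 0.508 against 0.822 in lowered and 0.809 in tested genes. TATAAA, the core of the TATA box, was present on either strand in 11.5% of raised, 2.94% of lowered and 5.71% of tested promoters, and in 11.1% of all 27305 promoters of the table. GGGCGG, the GC box bound by SP and KLF factors, was present in 48.1%, 61.8% and 66.1%, and in 42.3% of all promoters, so that on both motifs the raised genes lay nearer to the whole table than to the expressed genes tested. TGACTCA, the AP-1 site, was present in 6.62%, 4.41% and 2.74% (4.16% of all), CCAAT in 32.8%, 32.4% and 34.9% (33.0% of all) and GGAATG, the TEAD site, in 8.36%, 5.88% and 9.52% (11.9% of all). Among genes with at least 1 CPM in all SCR AAI libraries, the raised and tested genes stood at 0.621 and 0.820 for the CpG ratio, 9.93% and 5.41% for TATAAA, 53.9% and 67.5% for GGGCGG, 7.09% and 2.54% for TGACTCA, 36.9% and 35.2% for CCAAT and 4.26% and 9.39% for GGAATG, the last with 6 raised promoters. A match is a description of the letters and not a bound site.

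Promoters were read singly for the 3 raised and 3 lowered genes with the largest change and an entry in that table. Of these, 4 are shown as examples, 5′ to 3′ on the strand of the gene. They do not stand for the raised or the lowered genes as groups, and POLR2A is itself the target of the siRNA. LEFTY2 is not among these promoters. Capitals mark any of the 5 motifs on either strand. CMYA5 (chr5:79689586-79689835, plus strand) held 3 GC boxes, TRIM72 (chr16:31213869-31214118, plus strand) 1 CCAAT box, POLR2A (chr17:7484116-7484365, plus strand) 2 GC boxes and ANKRD1 (chr10:90921088-90921337, minus strand) 2 TEAD sites. The promoter of GRAMD2 held 9 matches, 6 of them overlapping GC boxes, and that of KAT5 held 0.
CMYA5, raised: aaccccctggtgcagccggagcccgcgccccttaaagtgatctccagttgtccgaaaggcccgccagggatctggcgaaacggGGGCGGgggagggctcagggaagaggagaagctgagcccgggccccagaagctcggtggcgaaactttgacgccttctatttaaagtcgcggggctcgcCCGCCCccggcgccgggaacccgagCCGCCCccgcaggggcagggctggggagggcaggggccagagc
TRIM72, raised: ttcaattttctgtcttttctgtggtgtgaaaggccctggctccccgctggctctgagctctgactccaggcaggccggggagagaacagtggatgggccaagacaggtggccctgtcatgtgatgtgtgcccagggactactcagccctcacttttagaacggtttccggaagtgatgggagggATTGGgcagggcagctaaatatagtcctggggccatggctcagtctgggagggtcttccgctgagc
POLR2A, lowered: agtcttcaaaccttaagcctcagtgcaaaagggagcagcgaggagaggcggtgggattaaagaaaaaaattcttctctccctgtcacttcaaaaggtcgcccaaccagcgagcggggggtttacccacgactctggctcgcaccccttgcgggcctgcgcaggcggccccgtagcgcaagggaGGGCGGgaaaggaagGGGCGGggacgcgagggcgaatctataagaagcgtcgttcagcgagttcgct
ANKRD1, lowered: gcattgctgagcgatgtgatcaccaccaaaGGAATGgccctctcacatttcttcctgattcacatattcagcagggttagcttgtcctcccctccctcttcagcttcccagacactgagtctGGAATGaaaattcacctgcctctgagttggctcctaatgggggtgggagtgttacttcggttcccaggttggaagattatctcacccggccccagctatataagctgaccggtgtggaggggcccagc

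Gene lists by function were read next, first the transcription machinery. Of the 13 RNA polymerase II subunits POLR2A alone was called. The other 12 ran from -0.34 (POLR2M) to 0.49 (POLR2B, the second largest subunit, at 153, 101 and 167 CPM in SCR AAI and 203, 179 and 201 CPM in siB AAI). POLR2B had an adjusted p of 0.127, and 0.00419 with the block, and POLR2C 0.0596 and 0.00521. With the block, then, these 2 partners of RPB1 were higher by less than the fold limit. No member was called among 33 general transcription factors, 39 elongation and pause release factors, 42 cleavage, termination and Integrator factors, or 19 subunits of polymerases I and III. At the adjusted p alone, CDK7, the kinase of TFIIH, was lower, at -0.70 (SE 0.19, adjusted p 0.0353), MEPCE, which caps the 7SK RNA that holds the pause release kinase CDK9 inactive, at -0.55 (SE 0.15, adjusted p 0.0441), and INTS7 at -0.69 (adjusted p 0.0269), while INTS2 was higher by 0.78 (adjusted p 0.0332) and RPAP2 by 0.66 (adjusted p 0.0373). Over the alternatives the adjusted p reached 0.138 for CDK7, 0.156 for MEPCE, 0.161 for INTS7 and 0.351 for INTS2. CDK9 itself stood at 38.8, 43.96 and 38.8 CPM in SCR AAI and 27.3, 26.7 and 29.8 CPM in siB AAI, a difference of -0.52 (adjusted p 0.0652, and 0.00534 with the block). The medians of these lists were -0.01 for the polymerase II subunits, -0.01 for general factors, -0.01 for elongation, -0.02 for termination and -0.27 for polymerases I and III, where POLR3B differed by -0.79 (adjusted p 0.0652, and 2.2e-04 with the block) and CRCP by -0.53 (adjusted p 0.0567, and 0.00277 with the block).

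Among 32 genes of nucleotide excision repair, which removes AAI adducts, none was called and the median was 0.01. UVSSA, whose adjusted p reached 0.1998 over the alternatives and which holds the stalled polymerase for transcription-coupled repair, was higher by 0.71 (SE 0.21, adjusted p 0.0490) at 15.2, 16.4 and 18.9 CPM in SCR AAI and 37.1, 25.2 and 23.8 CPM in siB AAI, and its partner ERCC6 differed by -0.70 (adjusted p 0.0595, and 1.7e-04 with the block). Of 46 genes of damage signalling and recombination KAT5 alone was called. At the adjusted p alone RAD51D, FANCE and BARD1 were also lower (-0.80, -0.79 and -0.74) and MDC1 higher (0.70), and with the block 9 were lower and 3 higher. Of 29 p53 targets PHLDA3, which restrains the kinase AKT, was lowered (51.96, 88.95 and 57.7 CPM in SCR AAI and 28.3, 32.2 and 31.1 CPM in siB AAI, -1.05 (SE 0.20, adjusted p 0.00920)), with an adjusted p of 0.0530 without SCR AAI replicate 3. At the adjusted p alone TNFRSF10B was higher by 0.77 (adjusted p 0.0112). TRIAP1 and PLK2 were also lower, at -0.81 (adjusted p 0.0129) and -0.66 (adjusted p 0.0279). With the block 6 p53 targets were lower and 1 higher, and the list, with 14 positive and 15 negative members, had a median of -0.002. CDKN1A, which encodes the cell cycle inhibitor p21, stood at 299, 305 and 263 CPM in SCR AAI and 304, 259.7 and 299 CPM in siB AAI, a difference of -0.01 (SE 0.15, adjusted p 0.985) with a 95% interval of -0.33 to 0.32.

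Of 50 replication genes RRM2, the subunit of ribonucleotide reductase that limits the supply of deoxynucleotides, was lowered. It stood at 299, 241 and 313 CPM in SCR AAI replicates 1, 2 and 3 and 108, 132 and 125 CPM in siB AAI replicates 1, 2 and 3, a difference of -1.21 (SE 0.16, adjusted p 0.00166). RRM2 was at 299.5 CPM in SCR DMSO and 336 CPM in siB DMSO, so its lowest levels of the 4 groups were in siB AAI. At the adjusted p alone 6 replication genes were lower and 0 higher, with the block 14 and 0, and 36 of 50 had a negative difference (median -0.17). Of 50 mitotic genes none was called, 4 were lower and 0 higher at the adjusted p alone (15 and 1 with the block), and 39 of 50 were negative (median -0.27). SPC25, a kinetochore protein, was lower, at -0.81 (SE 0.19, adjusted p 0.0229) and up to 0.0835 over the alternatives, and TTK, a spindle checkpoint kinase, differed by -0.76 (adjusted p 0.0638, and 3.2e-05 with the block). In TTK same-numbered libraries differed by -1.28, 0.05 and -1.05, so the pairs did not share a direction. Among all tested genes 7433 of 14946 were negative. Of 89 chromatin modifiers KAT5 was called, 6 were lower and 1, ASH1L, higher at the adjusted p alone (15 and 6 with the block), and the median was -0.09.

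Of 40 splicing factors and CLK kinases 30 were negative, with the lowest median of the 28 lists by function (-0.30). None reached 2-fold. At the adjusted p alone 4 were lower and 0 higher (14 and 1 with the block): HNRNPDL at -0.92 (SE 0.18, adjusted p 0.0107), SRSF3 at -0.83 (SE 0.17, adjusted p 0.0112), HNRNPD at -0.75 (adjusted p 0.0140) and SRSF7 at -0.58 (adjusted p 0.0391). Over the alternatives the adjusted p reached 0.0744 for HNRNPDL and 0.0711 for SRSF3. SRSF3 stood at 427, 387 and 466 CPM in SCR AAI and 195, 264 and 264 CPM in siB AAI, without overlap. SR proteins and hnRNPs bind nascent transcripts and choose splice sites.

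Of 35 early response and AP-1 genes JUND, an AP-1 subunit, was lowered (113, 197 and 128 CPM in SCR AAI and 52.8, 78.96 and 66.6 CPM in siB AAI, -1.10 (SE 0.22, adjusted p 0.0102)), with an adjusted p of 0.0590 without SCR AAI replicate 3. JUN and DUSP1 were lower, at -0.73 (adjusted p 0.0153) and -0.63 (adjusted p 0.0300) and FOSB higher by 0.95 (adjusted p 0.00598), none of them by 2-fold, and with the block 12 were lower and 4 higher, and 26 of 35 were negative (median -0.22). Of 17 cytokines and chemokines tested, CX3CL1, or fractalkine, which draws monocytes and T cells, fell by 1.05 (SE 0.17, adjusted p 0.00436) at 44.4, 54.9 and 44.3 CPM in SCR AAI and 24.8, 21.2 and 21.4 CPM in siB AAI. IL18, a cytokine made by injured tubules, fell by 1.02 (SE 0.21, adjusted p 0.0122) at 46.8, 27.1 and 33.6 CPM in SCR AAI and 17.4, 15.2 and 17.7 CPM in siB AAI, and CCL5 was higher by 0.87 (adjusted p 0.0309) at a level of at most 2.84 CPM. IL18 had an adjusted p of 0.0685 without SCR AAI replicate 3.

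Of 29 YAP and TEAD targets ANKRD1 and CYR61 were lowered. CYR61 (now CCN1), a matricellular protein, stood at 570.2, 887 and 1048 CPM in SCR AAI and 308, 381 and 427 CPM in siB AAI, a difference of -1.13 (SE 0.22, adjusted p 0.00938), and without SCR AAI replicate 3 at -0.95 with an adjusted p of 0.0711. F3, or tissue factor, was lower, at -0.78 (adjusted p 0.0176) and AJUBA at -0.60 (adjusted p 0.0327), while LATS2, the kinase that inhibits YAP, was higher by 0.77 (adjusted p 0.0240) and IGFBP3 by 0.78 (adjusted p 0.0476). With the block 9 were lower and 3 higher, and the median was -0.22. CTGF, the CCN family member that the study followed, differed by -0.24 (adjusted p 0.437, and 0.214 with the block), and YAP1 by 0.03 (adjusted p 0.949, and 0.917 with the block).

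All 18 cell junction genes that the study had picked on these same samples were higher in siB AAI (median 0.29). They are not independent evidence of that direction, because they were chosen on it. None was called, and 2 passed the adjusted p alone: BCAS3 (3.09, 4.08 and 4.89 CPM in SCR AAI and 7.26, 8.81 and 8.09 CPM in siB AAI, 0.86) and PTPRD (7.34, 7.34 and 8.104 CPM in SCR AAI and 17.2, 12.8 and 14.1 CPM in siB AAI, 0.86), 7 with the block. Their adjusted p reached 0.0980 and 0.3495 over the alternatives. Both had higher means in SCR DMSO, at 13.2 and 39.2 CPM. Of 51 matrix and TGF-beta genes none was called, 38 were positive (median 0.25), and with the block 18 were higher and 4 lower. COL1A1, a collagen chain, differed by -0.76 (adjusted p 0.137, and 9.7e-05 with the block) and PLAUR, the urokinase receptor, by 0.70 (adjusted p 0.0760, and 7.2e-05 with the block). Of 41 epithelial junction and keratin genes 0 were called and 4 were lower at the adjusted p alone (12 lower and 3 higher with the block). KRT19, a keratin of simple epithelia, stood at 135, 191 and 162 CPM in SCR AAI and 62.4, 97.2 and 102 CPM in siB AAI, a difference of -0.91 (SE 0.21, adjusted p 0.0182), CLDN2, a claudin of the leaky proximal tubule, was lower, at -0.80 (adjusted p 0.0295), CLDN4 at -0.79 (adjusted p 0.0168) and ESRP2 at -0.76 (adjusted p 0.0348). Over the alternatives the adjusted p reached 0.131 for KRT19 and 0.122 for CLDN2.

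Of the lists by function, the ones with the most raised members were cilia, ion transport and the differentiated proximal tubule, and most of their raised members were weakly expressed. Over all tested genes, 200 of the 13686 with at least 1 CPM in all SCR AAI libraries were raised. Of the 1260 that reached 1 CPM in fewer SCR AAI libraries, 254 were raised. Of 51 dynein, kinesin and cilium genes 5 were raised, 4 of them among the 46 with at least 1 CPM in all SCR AAI libraries. DNAH10, a heavy chain of the motor that bends cilia, stood at 6.35, 5.44 and 7.595 CPM in SCR AAI and 24.2, 22.8 and 23.9 CPM in siB AAI, a difference of 1.73 (SE 0.19, adjusted p 5.9e-04). DNAH12 differed by 1.18 (SE 0.22, adjusted p 0.00701), DNAH2 by 1.05 (SE 0.24, adjusted p 0.0175) and CFAP43, a ciliary and flagellar protein, by 1.16 (SE 0.29, adjusted p 0.0262), and DNAH17, the fifth, by 1.05 (adjusted p 0.0109). Of 49 sodium and ion transport genes 6 were raised, but only 2 of these were among the 37 with at least 1 CPM in all SCR AAI libraries, and the others entered the test through siB AAI. SLC12A3, the sodium chloride cotransporter of the distal tubule, stood at 1.49, 0.6797 and 1.17 CPM in SCR AAI and 5.302, 4.29 and 6.698 CPM in siB AAI, ATP1A4, a sodium pump chain of sperm, at 0.497, 0.181 and 0.274 CPM in SCR AAI and 3.85, 2.12 and 2.04 CPM in siB AAI, and SLC8A2, a sodium-calcium exchanger, at 11.1, 13.7 and 11.6 CPM in SCR AAI and 28.5, 28.5 and 29.04 CPM in siB AAI. Their differences were 1.61 (SE 0.24, adjusted p 0.00317), 1.45 (SE 0.24, adjusted p 0.00458) and 1.18 (SE 0.18, adjusted p 0.00323), and the sulfate carrier SLC13A4 differed by 1.25 (SE 0.27, adjusted p 0.0165). Both lists were written with results of these samples known, so their direction is not independent evidence. DNAH12, DNAH2, CFAP43, ATP1A4 and SLC13A4 had adjusted p of 0.0590, 0.0903, 0.138, 0.0511 and 0.104 without SCR AAI replicate 3.

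Of 29 proximal tubule genes 20 were tested and 5 were raised. Of these 5 ACSM2A alone had at least 1 CPM in all SCR AAI libraries (1 of 13 such members), and the other 4 entered the test through siB AAI. Over all tested genes these 2 classes held 200 raised of 13686 and 254 raised of 1260. SLC22A2, the organic cation transporter of the basolateral membrane, stood at 0.221, 0.272 and 0.509 CPM in SCR AAI replicates 1, 2 and 3 and 4.04, 2.82 and 2.89 CPM in siB AAI replicates 1, 2 and 3, a difference of 1.67 (SE 0.22, adjusted p 0.00152). ANPEP, a brush border peptidase, stood at 0.607, 0.317 and 0.352 CPM in SCR AAI and 4.17, 2.82 and 2.25 CPM in siB AAI, a difference of 1.49 (SE 0.23, adjusted p 0.00375), and SLC5A1, a sodium-glucose cotransporter, at 0.828, 1.13 and 0.666 CPM in SCR AAI and 4.99, 3.23 and 3.75 CPM in siB AAI, a difference of 1.40 (SE 0.22, adjusted p 0.00406). ACSM2A, a mitochondrial acyl-CoA synthetase, and SLC34A3, a phosphate cotransporter, rose by 1.14 (adjusted p 0.0104) and 1.12 (adjusted p 0.0298), whereas SLC34A1, the main phosphate cotransporter of the segment, was lower, at -0.77 (adjusted p 0.0388) at 2.04, 1.86 and 1.64 CPM in SCR AAI and 0.505, 0.6000 and 0.911 CPM in siB AAI. ACSM2A had an adjusted p of 0.0556 when all 4 groups were fitted. All 5 raised members stayed under 7 CPM, and the summed level of the 29 listed genes was 981 to 1065 CPM in SCR AAI and 993 to 1097 CPM in siB AAI. Of 19 tubular injury genes PROM1, or CD133, a surface protein of regenerating tubule cells, was raised (1.16, 1.36 and 1.37 CPM in SCR AAI and 4.797, 5.95 and 4.501 CPM in siB AAI, 1.40 (SE 0.21, adjusted p 0.00323)). SOX4 was lower, at -0.86 (adjusted p 0.0319), and HAVCR1, the injury marker KIM-1, differed by -0.35 (adjusted p 0.212, and 0.0609 with the block).

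Markers of cell types not meant to be in the culture also held weak risers. PECAM1 of endothelium rose by 1.23 (SE 0.22, adjusted p 0.00661) (1.33, 1.36 and 1.45 CPM in SCR AAI and 5.55, 5.03 and 3.38 CPM in siB AAI) and ITGAM of myeloid cells by 1.35 (SE 0.23, adjusted p 0.00512) (0.442, 0.7704 and 0.705 CPM in SCR AAI and 4.29, 2.72 and 2.63 CPM in siB AAI). Without SCR AAI replicate 3 PECAM1 had an adjusted p of 0.0519. The endothelial list, with 1 of 3 tested members raised, summed to 4.66 to 7.34 CPM in SCR AAI and 9.27 to 12.6 CPM in siB AAI, with KDR at 0 throughout. The immune list, with ITGAM tested only through siB AAI, summed to 77.0 to 86.1 and 73.6 to 81.2 CPM, with CD3E and MS4A1 at 0. The distal nephron list, with 1 of 5 raised (SLC12A3, tested with the help of siB AAI), summed to 11.8 to 12.1 and 21.6 to 24.9 CPM, with UMOD at 0. None of 4 fibroblast and 2 podocyte markers tested was called (sums of 41.4 to 48.9 against 45.9 to 54.6 CPM, and 53.2 to 76.4 against 38.6 to 68.7 CPM). Of the fibroblast markers tested, COL1A1 was at -0.76 (adjusted p 0.137) and LUM at 0.65 (adjusted p 0.111). Of the podocyte markers SYNPO was at -0.44 (adjusted p 0.332) and PODXL at -0.18 (adjusted p 0.618).

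In the integrated stress response, of 30 genes PSAT1, an enzyme of serine synthesis, was raised (12.98, 15.8 and 19.1 CPM in SCR AAI and 35.03, 31.6 and 37.8 CPM in siB AAI, 1.09 (SE 0.19, adjusted p 0.00549)) and DDIT4 was lowered, as described above. ATF4, the factor that drives the program, stood at 505, 509 and 602 CPM in SCR AAI and 232, 297 and 283 CPM in siB AAI and was lower, at -0.99 (SE 0.16, adjusted p 0.00433), short of the fold limit. PSAT1 was also higher in DMSO, at 52.1 CPM in siB against 14.9 CPM in SCR cells. Of 29 NRF2 and AHR targets ABCC2, an apical export pump for conjugated toxins, stood at 4.91, 4.53 and 5.68 CPM in SCR AAI and 21.2, 18.3 and 20.95 CPM in siB AAI, a difference of 1.81 (SE 0.19, adjusted p 5.8e-04). AHRR, the repressor that the aryl hydrocarbon receptor induces against itself, stood at 9.88, 15.1 and 19.03 CPM in SCR AAI and 39.6, 39.9 and 43.6 CPM in siB AAI, a difference of 1.47 (SE 0.22, adjusted p 0.00323). The median of that list was -0.23 and 20 of 29 members were negative, so these 2 stood apart from the other members. Of 35 interferon response genes ISG20, an exonuclease, rose by 1.26 (SE 0.25, adjusted p 0.0102) and XAF1, an antagonist of apoptosis inhibitors, by 1.04 (SE 0.21, adjusted p 0.0108) (median of the list 0.02). Without SCR AAI replicate 3 their adjusted p were 0.0781 and 0.0593. Of 27 heat shock genes none was called. DNAJB6 was higher by 0.54 (adjusted p 0.0488), up to 0.183 over the alternatives, and HSPA8 differed by -0.46 (adjusted p 0.121, and 0.00658 with the block).

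The last lists were those of the mitochondrial genome and the ribosome. The 13 messenger RNAs of the mitochondrial genome, which has its own polymerase, were all higher in siB AAI, with a median difference of 0.54. MT-ND4, a subunit of complex I, stood at 1829, 2408 and 2851 CPM in SCR AAI replicates 1, 2 and 3 and 3215, 4144 and 4023 CPM in siB AAI replicates 1, 2 and 3, a difference of 0.70 (SE 0.21, adjusted p 0.0549). In DMSO the MT-ND4 means were 3240.4 CPM in SCR and 3190.04 CPM in siB cells. MT-ND4L and MT-ND5 passed the adjusted p (0.0456, up to 0.1496 over the alternatives, and 0.0430), and with the block all 13 did. The list median was 0.50 with median-ratio scaling. Transcripts of the mitochondria share the reads with all others, so more of them and less nuclear message cannot be told apart. The 79 cytosolic ribosomal protein genes were the tightest list, with differences from -0.30 (RPS9) to 0.28 (RPS24), a median of 0.04 and none past an adjusted p of 0.05, with or without the block.

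**Figure D5:**
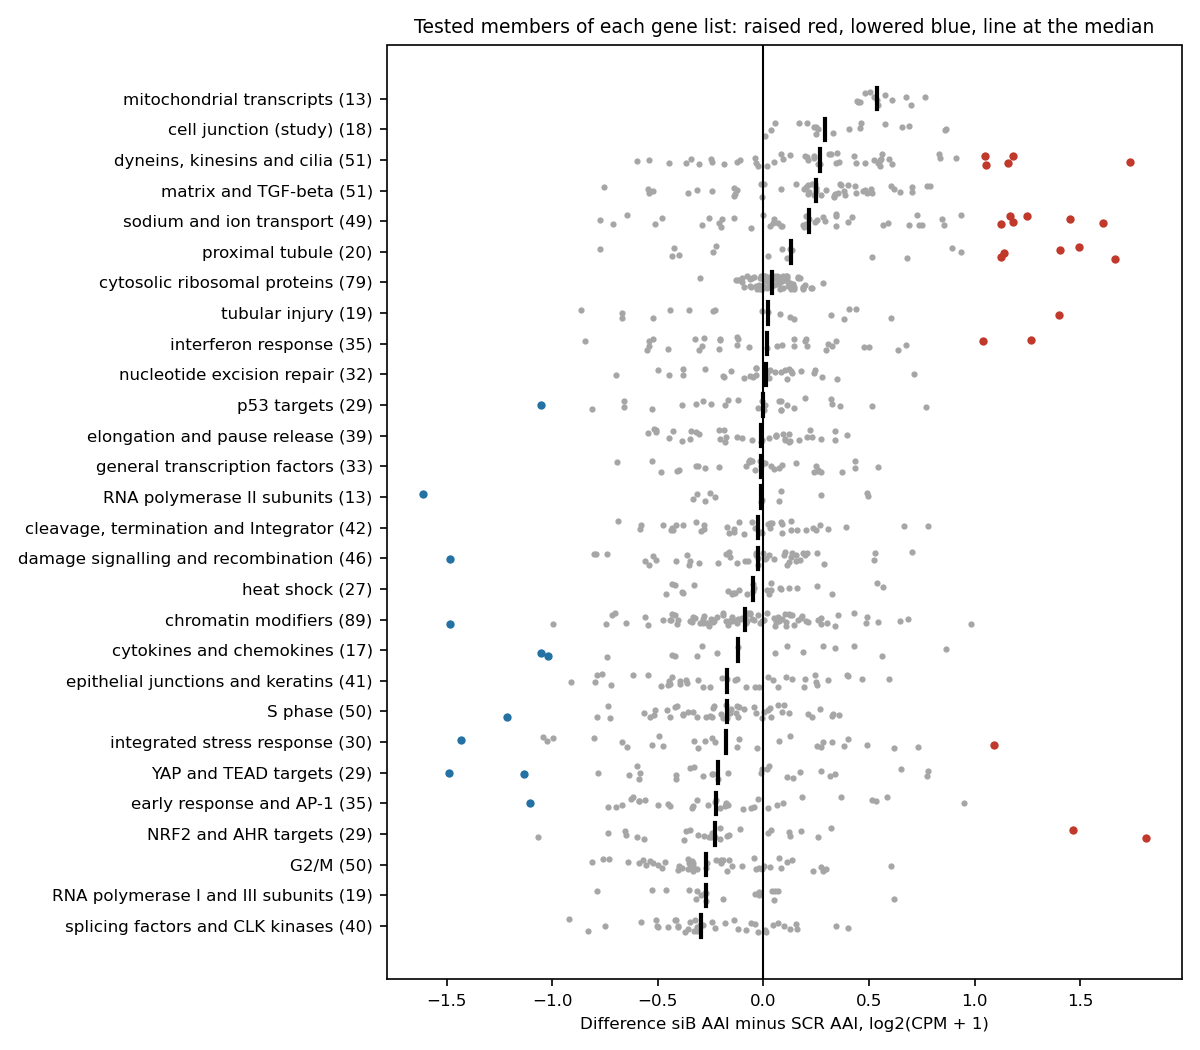
Difference siB AAI minus SCR AAI in log2(CPM + 1) for each tested member of 28 gene lists, ordered by the list median (black line), with the number tested in parentheses, raised members in red and lowered members in blue. Medians run from -0.30 for splicing factors to 0.54 for mitochondrial transcripts, and red points, many of them tested only through siB AAI, stand mainly in the cilium, ion transport and proximal tubule lists.

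Of the genes the study followed as marks of injury, IL6 shows how much the replicate number mattered. It stood at 3.15, 44.5 and 48.7 CPM in SCR AAI replicates 1, 2 and 3 and 2.71, 22.9 and 21.7 CPM in siB AAI replicates 1, 2 and 3, so that replicate 1 of both groups was far below the other 2, and the groups overlapped. The difference was -0.74 (SE 0.85, adjusted p 0.628) without the block and had an adjusted p of 1.3e-04 with it, where same-numbered libraries differed by -0.16, -0.93 and -1.13. KLF6, a zinc finger transcription factor of injury, stood at 115, 183 and 225 CPM in SCR AAI and 79.02, 129 and 114 CPM in siB AAI, a difference of -0.67 (adjusted p 0.106, and 5.9e-05 with the block). VIM, the vimentin gene, stood at 978, 945 and 1092 CPM in SCR AAI and 620.2, 699 and 785 CPM in siB AAI, a difference of -0.52 (adjusted p 0.0623, and 0.00192 with the block). None of the 3 differences reached the limit of 1 on the log2 scale.

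The same knockdown in uninjured cells, measured in the other 6 libraries, gave no called gene (0 of 13606, or 0%). The lowest adjusted p was 0.257, and 644 genes had an unadjusted p under 0.05. POLR2A itself, at -1.01 in DMSO, had an adjusted p of 0.505 there, and PSAT1, at 1.74, of 0.257, so that no call in DMSO does not show that the knockdown had no effect there. The fit over all 4 groups called 8 raised and 1 lowered. SCR DMSO replicate 2 stood apart, with 42805294 reads, 13032 genes at 1 CPM and a median of 16.2 CPM over the tested genes. In SCR DMSO replicates 1 and 3 that median was 25.8 and 21.5 CPM. The SCR DMSO means, the tests in DMSO and the interaction include replicate 2, and its part in them was not tested. The difference between the knockdown effect with and without AAI was tested as an interaction over all 12 libraries. It was positive for 223 genes (1.46% of 15325) and negative for 24 (0.157%) at an adjusted p under 0.05. Of the 454 raised genes 201 were among the 223 or 24, and of the 94 lowered genes 10. The contrast under AAI is part of that interaction and uses the same libraries, so the overlap is given as a count only. In 185 of the 201 both DMSO means were under 1 CPM, where a knockdown effect in DMSO could hardly be measured and the interaction repeats the difference under AAI. For POLR2A it was -0.59 (adjusted p 0.157). For LEFTY2 it was 2.76 (adjusted p 0.00428), for CMYA5 2.46 (adjusted p 0.00188) and for SLC22A2 1.81 (adjusted p 0.00367). Among lowered genes it was -1.40 (adjusted p 0.0163) for RRM2, -1.06 (adjusted p 0.0303) for DNMT3B and -1.41 (adjusted p 0.0261) for B3GALT4, while for ANKRD1, whose DMSO means were 116 CPM in SCR and 62.9 CPM in siB cells, it was -0.63 (adjusted p 0.459).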

How the data were processed

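Polyadenylated RNA of HK-2 cells was sequenced in pairs of reads. Per the study's methods and the submitters' processing notes, reads were aligned to hg38 and counted per gene on BioJupies. The aligner, its version and the use of strand are not given in the sources used here, so overlapping and antisense genes are uncertain. The authors deposited log10(CPM + 1) for 35238 genes in 12 libraries, of which 7627 were at 0 throughout. Taking 10 to the deposited log10 value minus 1 gave CPM that sum to the same total in each library and are whole multiples of 1 read (tolerance 0.02), from which depth was recovered. A count of 3 reads corresponds to 0.117 to 0.189 CPM in the AAI and 0.0701 to 0.167 CPM in the DMSO libraries, which covers counting error only.

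The 6 AAI libraries were fitted alone with limma 3.58.1 (R 4.3.3, lmFit and eBayes with trend) on log2(CPM + 1). A gene was tested at 1 CPM in at least 3 of 6 libraries and called at a Benjamini-Hochberg adjusted p under 0.05 and a 2-fold change. All adjusted p-values of genes in the text are limma's, and that of the measures per library adjusts the permutation p. The fits were tested on simulated data first. Deviations of same-numbered libraries correlated at 0.62, 0.32 and 0.30 and each library correlated best with its own number, so the numbers were taken as pairs and a fit with a replicate block was an alternative. With the block 2 residual degrees of freedom remain and single-gene p-values rest on a variance pooled over genes. Other alternatives were other pseudocounts, filters, scalings and models and each library left out.

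The members of lists, the lists and the rules were chosen with earlier results of these data known. Named were POLR2A, 5 genes the study followed, the 15 raised and 15 lowered genes with the largest change among those with a mean of at least 5 CPM and no overlap, and up to 4 called members, or else the 2 with the largest change, of each gene list. Further list members, and any other gene, were chosen after their values were seen. Their calls with a library left out are not given. At the adjusted p alone only 151 higher and 62 lower genes remained over all tested genes without SCR AAI replicate 3. Gene spans came from GENCODE 44 (96.1% of genes with a mean of at least 1 CPM had one, 1151 genes being matched by an older symbol). Genes with names turned into dates (28) were tested and not named. All 12 libraries entered the interaction and a fit of all 4 groups. Some items are not reported here.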

Additional observations from a re-analysis of the deposited data

Results flagged for a closer look

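The interaction of siRNA and treatment over 12 libraries (limma) passed an adjusted p of 0.05 for 223 genes in the positive and 24 in the negative direction. Of the 201 raised genes among these, 185 had both DMSO means under 1 CPM, so that their interaction repeats the difference under AAI (2.76 against 2.69 for LEFTY2) and does not show a differing effect. B3GALT4, at 0.302 and 0.332 CPM in DMSO, is of the same kind. Of the genes named, the interaction in log2(CPM + 1) passed an adjusted p of 0.05 for the following. Among the raised genes with the largest change it was 2.76 for LEFTY2, 2.73 for MN1, 2.46 for CMYA5, 2.42 for GRAMD2, 2.21 for TLL2, 2.11 for MYH15, 2.09 for PRPH, 2.04 for FRZB, 1.94 for FAM179A and 1.67 for ST8SIA5. Among transport, cilium and tubule genes it was 1.81 for SLC12A3, 1.81 for SLC22A2, 1.67 for DNAH10, 1.67 for ABCC2, 1.62 for ANPEP, 1.54 for ATP1A4, 1.49 for PROM1, 1.44 for SLC5A1 and 1.39 for SLC8A2. The markers of other cell types with such a value were ITGAM at 1.50 and PECAM1 at 1.30, both expressed at a few CPM. The negative values were -1.41 for B3GALT4, -1.40 for RRM2, -1.22 for CLDN2 and -1.06 for DNMT3B. The other 5 raised genes of the largest change (TRIM72, DAPP1, MATN4, CCDC168 and CASKIN1) did not pass. With the replicate block TRIM72 (0.0135), DAPP1 (0.0204) and CCDC168 (0.0373) did. In the interaction that block shares the effect of a replicate number between DMSO and AAI libraries, a pairing that was not checked.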

How the results depend on the processing

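POLR2A stayed between -1.75 and -1.52 (adjusted p at most 0.0161) in every alternative. In new fits, raised genes numbered 134 at a mean of 5 CPM and 198 at 1 CPM in all SCR AAI libraries, and all of these were among the 454. With 1 library left out there were 144 to 597 raised and 44 to 164 lowered genes, both lowest without SCR AAI replicate 3 (lowered genes numbered 164 without SCR AAI replicate 1). Without the fold limit counts were 820 and 567, with the replicate block 2268 and 2057, and with 1 library left out 151 to 1306 and 62 to 798 (lowered genes 798, 434 and 62 without SCR AAI replicates 1, 2 and 3 and 292, 185 and 177 without siB AAI replicates 1, 2 and 3). The block lost no call made with the fold limit and left 477 raised and 107 lowered genes. The short share of raised minus lowered genes was -24.9 percentage points, and -35.2 at 1 CPM in all SCR AAI libraries, -36.8 at a mean of 5 CPM, -45.2 to -19.3 with 1 library left out (lowest without SCR AAI replicate 3) and -11.9 without replicate 2 in the replicate block. The cause was not tested. Of the recovered reads at least 99.997% of values were whole, and voom on them called 619 raised and 126 lowered genes. In DMSO 8 raised and 1 lowered gene were called when all 4 groups were fitted, against 0, and the interaction was negative for 102 genes with the replicate block, against 24. The block of the interaction pairs DMSO with AAI libraries by number, which was not checked. Of the 30 raised and lowered genes with the largest change 546 of 563 values over 19 alternatives kept direction and call, 17 lost the call and 0 reversed. IL6, at -0.74, ran from -1.91 to 0.14 with 1 library left out (0.14 without siB AAI replicate 1), and CDKN1A, at -0.01, from -0.0723 to 0.0652, and to 0.105 without replicate 2 in the replicate block. The 1 CPM filter in all SCR AAI libraries and the fits without a library and a fold limit were added after seeing the data. Depth limits genes under about 0.189 CPM, and the raised genes had a median of 0.276 CPM in SCR DMSO.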
